A study of Mus musculus with 4 samples.

Results

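The genes described here are 10 genes of the hypoxia response and of the switch between lactate and mitochondrial use of pyruvate, Hif1a, Epas1, Egln1, Egln3, Vhl, Pdk1, Pdk2, Pdk4, Ldha and Ldhb, read in ATAC-Seq of hematopoietic stem cells with and without Cpt1a, the enzyme that loads long-chain fatty acids for import into mitochondria. ATAC-Seq cuts open DNA with a transposase, so that a peak marks a stretch of accessible chromatin and says nothing of RNA or protein. Each gene was taken with its whole body and 5000 bp on each side, and every peak there was kept whatever its signal. The genes were listed by name, though with earlier results of these data known. Peaks that shared 1 bp or more across the libraries were merged into regions, which gave 112 regions for the 10 genes, of 337776 in the series.

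Control cells, whose genotype the sample labels give as WT, came per the study's methods from Cpt1a fl/fl mice, whose gene is flanked by loxP sites, and KO cells from Cpt1a Δ/Δ mice, in which Vav1-Cre removes it throughout the hematopoietic system. The mice were adults of both sexes on a C57BL/6 background, and nothing in the labels or methods ties a library to an animal or a pool. Each genotype had 2 libraries of cells sorted from bone marrow and cryopreserved after the sort, which the labels call ltHSC and the methods call HSPCs. As a check of the cells, each marker's start was given the region over it, or else the nearest within 1000 bp. That region held a peak of all 4 libraries for 9 of 10 stem and progenitor markers (Kit, Procr and Mecom among them), and of 1 for Hoxa9. Markers of other cells with a listed start were read likewise. A peak of all 4 libraries was held for none of 2 for T cells, 1 of 1 for B cells (Cd79a) and 1 of 2 for neutrophils and macrophages (Camp). It was held for none of 1 for erythroid cells and 1 of 3 for other organs (Neurod1).

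In low oxygen, the hydroxylases encoded by Egln1 and Egln3 stop marking HIF alpha subunits for capture by the Vhl ubiquitin ligase, and the subunits encoded by Hif1a and Epas1 accumulate and bind DNA with Arnt. Pdk genes encode kinases that switch off pyruvate dehydrogenase and so keep pyruvate out of mitochondria, and lactate dehydrogenase, built of Ldha and Ldhb subunits, converts pyruvate and lactate into each other. Hematopoietic stem cells live in poorly oxygenated marrow and are known for a glycolytic, Hif1a- and Pdk-dependent quiescent state.

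The lists gave for every summit, the point of strongest signal in a peak, a fold over the local background of its library, here called the fold, and the -log10 of its p and q. Between 240940 and 277594 summits were listed per library, control intervals covered 48.9 to 52.9 Mb and KO intervals 42.6 to 44.4 Mb, and KO 2 had the smallest share of summits at or above a -log10 q of 5 (35.1%, against 40.5% to 46.8% in the others). No read counts were given, so the depth is unknown. Folds are therefore printed as the value of each library, and genotypes are compared by percentile. Each region took the highest fold of its summits, and its percentile is its rank by that fold among the regions of its own library, with 100 the strongest. An exact permutation of 2 libraries against 2 reaches a two-sided p of 0.333 at best, so no p-value is given, and counts are set beside the share over all regions. Across all regions shared by the 4 libraries, the 2 control percentiles differed by a median of 5.17 points and the 2 KO percentiles by 5.59. A region is called ranked higher or lower in KO when both KO percentiles lie beyond both control percentiles by at least 5 points. A lower value from fewer cells with open chromatin and from less opening per cell cannot be told apart in such libraries. The start of Cpt1a was open in all libraries (fold 7.96 and 7.50 in controls, 8.001 and 9.07 in KO) and so does not check its deletion.

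The starts of the 9 genes that the RefSeq promoter table (GRCm38.p6, the same assembly as mm10) holds were open in every library. Among all 17274 coding genes of that table, 64.1% had a start-site region in all 4 libraries. The strongest summit lay within the 250 bases before the start in 31 of the 36 cases (9 genes in 4 libraries), and those bases are printed for 5 genes to show what was open. They are the strongest start (Pdk1), the oxygen-regulated subunit (Hif1a), the gene with most hypoxia response cores (Ldha), a gene without any (Vhl) and the gene richest in CpG (Egln1). The HIF heterodimer binds a core that reads ACGTG or GCGTG, and capitals mark these letters on either strand, so that ACGTG read from the other strand appears as CACGT and the palindrome CACGTG counts as a match on both strands. The bases read 5′ to 3′ along the gene and end next to the start. They lie at chr2:71872974-71873223 (plus strand), chr12:73907617-73907866 (plus), chr7:46845554-46845803 (plus), chr6:113623744-113623993 (plus) and chr8:124949255-124949504 (minus). The capitals that close the Pdk1 sequence open a core that runs across the start.
Pdk1: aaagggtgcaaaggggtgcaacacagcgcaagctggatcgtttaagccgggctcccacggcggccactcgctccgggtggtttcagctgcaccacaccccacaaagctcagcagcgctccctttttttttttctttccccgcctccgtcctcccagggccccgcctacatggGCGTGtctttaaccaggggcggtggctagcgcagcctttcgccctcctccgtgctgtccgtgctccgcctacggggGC
Hif1a: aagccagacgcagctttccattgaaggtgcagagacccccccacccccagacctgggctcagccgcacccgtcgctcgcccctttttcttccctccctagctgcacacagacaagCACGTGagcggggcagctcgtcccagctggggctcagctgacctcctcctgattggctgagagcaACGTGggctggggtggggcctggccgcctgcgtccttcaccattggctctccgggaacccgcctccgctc
Ldha: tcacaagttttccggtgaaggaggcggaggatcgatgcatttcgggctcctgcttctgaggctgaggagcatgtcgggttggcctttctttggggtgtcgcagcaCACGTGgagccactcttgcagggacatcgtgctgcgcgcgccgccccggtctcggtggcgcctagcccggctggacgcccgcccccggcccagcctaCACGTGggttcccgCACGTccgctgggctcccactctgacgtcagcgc
Vhl: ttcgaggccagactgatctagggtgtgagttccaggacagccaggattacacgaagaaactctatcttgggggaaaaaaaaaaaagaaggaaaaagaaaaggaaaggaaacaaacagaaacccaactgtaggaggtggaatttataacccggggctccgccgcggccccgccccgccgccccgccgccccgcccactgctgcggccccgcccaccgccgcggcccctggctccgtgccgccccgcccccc
Egln1: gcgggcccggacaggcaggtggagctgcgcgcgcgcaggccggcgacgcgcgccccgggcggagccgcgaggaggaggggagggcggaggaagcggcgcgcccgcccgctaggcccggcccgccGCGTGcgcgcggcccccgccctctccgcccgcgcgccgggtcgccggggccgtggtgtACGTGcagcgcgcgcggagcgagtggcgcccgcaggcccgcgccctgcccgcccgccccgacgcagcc

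Of the 9 windows from 250 bases before to 50 bases after the most upstream listed start, 8 held at least 1 core, 5 held ACGTG and 5 held GCGTG. Over the windows of all 27025 genes, coding or not, 43.8% held either, 19.6% ACGTG and 32.5% GCGTG. The share over coding or open starts alone was not counted. The members' windows were also rich in CpG, with a median of 25 CpG and 64.7% GC against medians of 7 CpG and 52.7% GC over all genes, and a core holds a CpG itself. Ldha, whose product favours the making of lactate, had 7 matches at 5 places, Hif1a 3 matches at 2 places, and Pdk2 a single palindrome. Egln1 had 1 of each core in a window of 86.0% GC and 60 CpG, and Pdk1 had 2 GCGTG cores. Egln3, Pdk4 and Ldhb had 1 core each. These letters are a description of the sequence and not sites found to be bound.

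The strongest summit stood at nearly the same base in all libraries for Hif1a, from -50 to -47 bp of the start, and for Pdk1, from -37 to -24 bp. In Vhl it stood at -15 and -13 bp in controls and at -31 and -30 bp in KO. It stood at -52 and -38 bp in controls and at -49 and -7 bp in KO in Ldha, which has a palindrome at -48 to -43 bp and a further core at -34 to -30 bp. The KO 2 summit was the farthest from both. In Pdk2 it lay from -143 to -110 bp, a stretch that holds that gene's palindrome. Other starts varied more. In Egln1 it stood at -156 and -144 bp in controls and at -65 and -48 bp in KO, so that the genotypes did not overlap. They did not overlap either in Vhl, in Pdk2 (-138 and -143 bp in controls, -127 and -110 bp in KO) or in Ldhb (10 and -8 bp, -20 and -37 bp). The share of all start sites where this is so was not counted. In Pdk4 it lay at -94 bp in control 2 and at -479, -444 and -480 bp in control 1, KO 1 and KO 2. The span over the 4 libraries was 3 bp in Hif1a, 13 bp in Pdk1, 18 bp in Vhl, 33 bp in Pdk2, 45 bp in Ldha, 47 bp in Ldhb, 108 bp in Egln1, 122 bp in Egln3 and 386 bp in Pdk4. Each value is the place of 1 summit among several in the region, and the differences between genotypes were not tested.

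**Figure D1:**
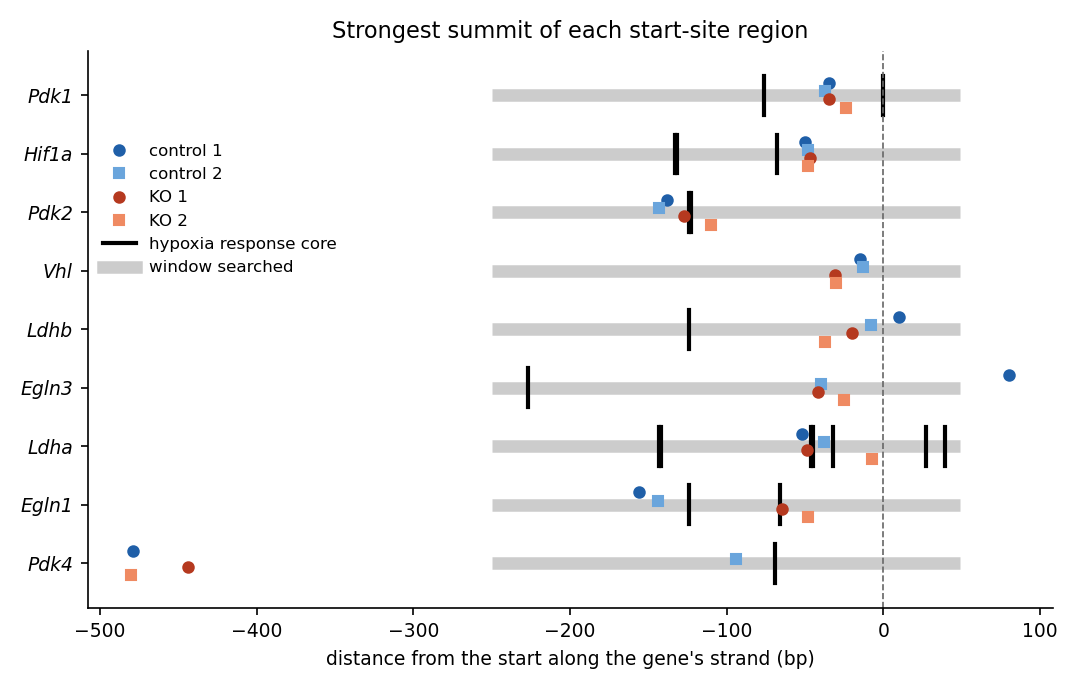
Position of the strongest summit of each start-site region (points, 2 control and 2 KO libraries) against distance from the start in bp along the gene, with the window searched in grey and hypoxia response cores as black ticks. Hif1a summits fall between -50 and -47 bp in all 4 libraries, and Pdk4 summits lie near -480 bp in 2 libraries and -94 bp in control 2.

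By strength, the start sites of these genes ran from among the strongest of coding genes to among the weaker. Each is given by its percentile among the 10229 start-site regions of coding genes shared by all 4 libraries, as the mean over the 4 libraries. Pdk1 led at 91.2 ± 3.64 (SD, n = 4), followed by Hif1a at 76.4 ± 10.4, Pdk2 at 63.6 ± 10.9 and Vhl at 59.5 ± 2.58. In the middle stood Ldhb at 48.0 ± 11.7, Egln3 at 42.4 ± 5.001 and Ldha at 40.9 ± 8.10. Egln1 at 24.6 ± 5.31 and Pdk4 at 18.8 ± 5.43 were the weakest. No gene was separated from its neighbour in this order, since the libraries of each adjacent pair overlapped, whereas within every library Pdk1 exceeded Pdk2 and Pdk2 exceeded Pdk4 in fold. The other paralogs kept their order too, with Egln1 minus Egln3 between -4.94 and -2.59 and Ldha minus Ldhb between -3.73 and -0.0156 in fold over the 4 libraries.

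**Figure D2:**
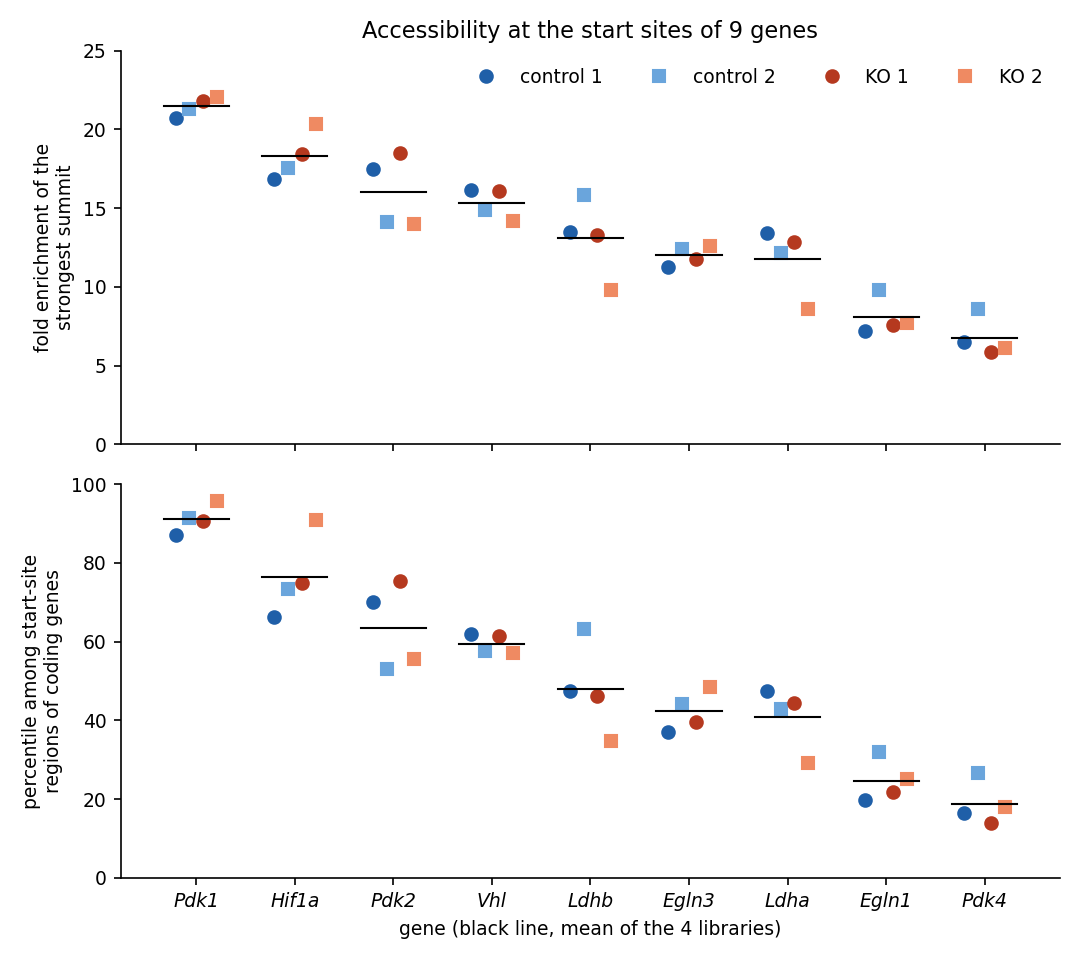
Fold of the strongest summit (top) and percentile among the start-site regions of coding genes (bottom) for 9 genes, with 1 point per library and a black line at the mean of the 4 libraries. Pdk1 lies highest and Pdk4 lowest, and control and KO points are interspersed for Pdk2, Vhl and Egln1.

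No start site of the 9 genes was ranked higher or lower in KO by 5 points, as 1.98% and 1.13% of coding start sites were. Start sites crowd the top of this scale, and 5 of the 9 (Hif1a, Vhl, Pdk1, Pdk2 and Ldhb) had no room for a rise of 5 points. Among start sites alone, where 511 of 10229 were ranked higher and 537 (5.25%) lower by 5 points, none of the 9 was either. KO minus control percentiles (among all regions of a library) ran from -3.63 for Pdk4 to 1.59 for Egln3, with 5 genes up, 4 down and a median of 0.32, against 0.31 over the start sites of all coding genes. Without a minimum gap, both KO percentiles lay above both control percentiles at 3 of 9 start sites (Hif1a, Egln3 and Pdk1) and below at 1 (Ldhb), where 23.4% and 12.6% of coding start sites did so. On 9 genes these counts lie within 1 gene of those shares. On the scale of start sites alone, Pdk1 and Egln3 overlapped between genotypes, and Hif1a stayed above (66.3 and 73.3 in controls, 74.9 and 91.0 in KO) and Ldhb below (47.5 and 63.3, 46.3 and 34.8), 1 of 9 each where 18.5% and 17.3% of coding start sites were. KO minus control was 13.2 points for Hif1a, -14.9 for Ldhb and -8.36 for Ldha on that scale, and KO 2 was the farthest from the controls in each.

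Hif1a (chr12:73901324-73947554), the oxygen-regulated alpha subunit found in most cells, had few regions for its length (5.34 in at least 2 libraries per 100 kb, above 31.9% of coding genes), 3 shared by all libraries and 2 in KO 1 alone. Its start-site region (chr12:73907357-73908721) had a fold of 16.8 and 17.6 in the controls and of 18.5 and 20.4 in KO, at percentiles of 96.8, 97.2, 97.8 and 99.2. Both KO libraries were above both controls, by 0.575 points between the nearest values. In the other 2 shared regions both KO libraries were below both controls. The region at the first base of the gene record (chr12:73901242-73901461), upstream of the start used here, had a fold of 9.10 and 6.82 in controls and 5.86 and 5.29 in KO, at percentiles of 86.8 and 76.9 against 76.1 and 74.4. The region past the gene's end (chr12:73949621-73950043), in the noncoding gene Gm15283, had 6.15 and 6.71 against 5.09 and 4.97, with percentiles of 76.8 and 76.3 against 71.7 and 72.6. In both of these the genotypes did not overlap, and the gaps of 0.785 and 3.74 points stayed under 5.

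Epas1 (chr17:86753864-86833410), the alpha subunit known from endothelium and the erythropoietin response, had the most regions, 39 over the longest window of the set (89.5 kb), of which 24 were in 1 library only and 9 in all 4. The promoter table has no entry for Epas1. Its strongest region (chr17:86752870-86753824) ended 40 bp before the first base of the gene record and had a fold of 10.2 and 11.0 in controls against 8.05 and 7.76 in KO, at percentiles of 89.3 and 89.5 against 84.3 and 85.1. The genotypes were apart there by 4.20 points. The adjoining region in the gene (chr17:86753976-86755294) was weaker, with 3.29 and 3.52 against 3.58 and 2.76, and its percentiles overlapped between genotypes (51.5 and 47.5, 54.3 and 22.1). Near the last base, chr17:86832656-86832858 had a peak of 4.55 in control 1, none in control 2, and 6.43 and 6.92 in KO. Between these ends, libraries of the same genotype often differed, as at chr17:86814267-86814638, where the percentile was 23.4 and 77.3 in controls and 80.9 and 61.3 in KO.

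**Figure D3:**
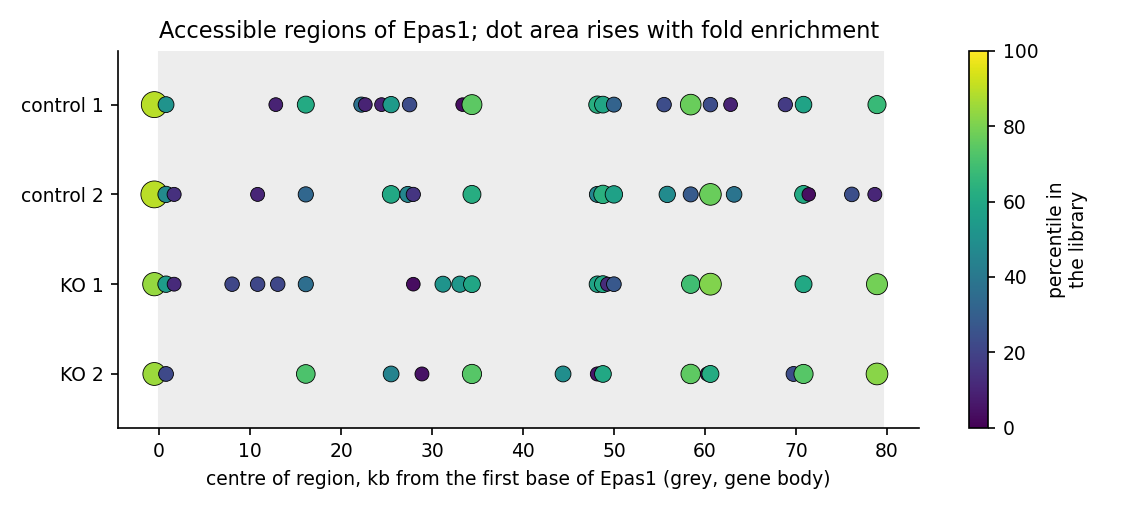
Regions of Epas1 in each library by the distance of their centre from the first base of the gene (kb), coloured by percentile in the library and sized by fold, with the gene body in grey. The region just before the first base is the strongest in each library, and 24 of the 39 regions appear in 1 row only.

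Egln1 (chr8:124908587-124949254), the main oxygen-sensing hydroxylase, held the only region of the 10 genes that met the rank rule. This region (chr8:124947810-124948133) lies inside the gene, just downstream of the start-site region and within the noncoding gene Gm46060. Its fold was 3.795 and 3.69 in the controls and 2.89 and 3.23 in KO, and its percentile fell from 58.9 and 51.9 to 30.8 and 40.0, with 11.96 points between the nearest values. The call was lost when peaks had to cover at least 0.5 of a region and when regions were ranked by -log10 p, and among summits at a -log10 q of 5 or more the region was listed in controls alone. The start-site region next to it (chr8:124948220-124950204), which also holds the start of Gm46060, had a fold of 7.23 and 9.81 in controls and 7.59 and 7.69 in KO, and its percentiles overlapped (81.4 and 87.0, 83.0 and 84.6). Deeper in the gene, chr8:124925788-124926332 had a fold of 7.14 and 7.46 against 9.36 and 7.56, and both KO percentiles (87.6 and 84.3) were above both controls (80.9 and 79.7). At the far end, chr8:124911846-124913028 was at percentiles of 74.6 and 68.0 in controls and 15.7 and 78.8 in KO, so that KO 1 alone was low.

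Egln3 (chr12:54178981-54203874), a hydroxylase whose own RNA rises in hypoxia, had 4 regions in all libraries and a density of 20.1 regions (in at least 2 libraries) per 100 kb, above 80.3% of coding genes. Its start-site region (chr12:54203133-54204145) had a fold of 11.3 and 12.4 in controls and 11.8 and 12.6 in KO. That at chr12:54191695-54192419, centred 11817 bp into the gene, came close to the start in strength, with 9.89 and 9.02 against 8.40 and 8.15, and overlapped between genotypes in percentile. Further in, chr12:54187285-54188737 had percentiles of 72.9 and 72.9 in controls and 68.6 and 61.0 in KO, 4.23 points apart. A weak region at chr12:54198427-54198588 was listed in the controls alone, with a fold of 2.47 and 2.39.

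Vhl (chr6:113623994-113631634), which encodes the part of the ligase that binds the hydroxylated subunit, had a single region in all 4 libraries, at its start (chr6:113623674-113624747). The fold was 16.2 and 14.9 in controls and 16.1 and 14.2 in KO, and the percentiles overlapped. Its percentile among start sites varied least of the 9 genes. A region 1565 bp before the gene (chr6:113622261-113622429) was listed in the controls alone, at a fold of 2.07 and 2.78.

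Of the kinases, Pdk1 (chr2:71873215-71903858), a hypoxia-induced kinase, had the strongest start of the set (chr2:71872809-71874121), with a fold of 20.7 and 21.3 in controls and 21.8 and 22.1 in KO. Both KO percentiles (99.2 and 99.6) were above both control percentiles (98.9 and 99.1), by 0.0921 points. Its other shared region, chr2:71898438-71898825, lay near the far end of the gene and was also above in KO, with 4.87 and 4.45 in controls against 7.49 and 4.89, at percentiles of 69.8 and 61.5 against 82.6 and 71.7. KO 1 carried most of that distance, and the nearest values were 1.93 points apart.

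Pdk2 (chr11:95026258-95041371), the kinase of broad expression, had the densest set of regions, 23.9 per 100 kb, above 87.2% of coding genes. The start-site region (chr11:95041101-95042454) had a fold of 17.5 and 14.1 in controls and 18.5 and 13.998 in KO, at percentiles of 97.3 and 94.1 against 97.8 and 95.5, which overlapped. Regions chr11:95026199-95026423 and chr11:95028424-95028728 were listed in the controls alone, at a fold of 2.42 and 2.35 in the former and 2.35 and 2.88 in the latter. Part of the flank overlaps the neighbouring gene Samd14, and the weak regions there cannot be assigned to either.

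Pdk4 (chr6:5483351-5496278), the kinase that fasting and fatty acids induce, had 1 shared region, at its start (chr6:5495861-5496868), and 1 region in KO 2 alone. Its fold was 6.50 and 8.60 in controls and 5.85 and 6.12 in KO. The percentiles overlapped, at 78.6 and 83.6 against 75.8 and 79.1. Among summits at a -log10 q of 5 or more this start-site region was ranked lower in KO (42.2 and 62.7 against 32.6 and 31.0), a setting in which 16.9% of all shared regions were. It had the lowest density of the 10 genes, 4.36 regions per 100 kb, above 28.3% of coding genes.

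Ldha (chr7:46842274-46855627) had a start-site region (chr7:46845334-46847268) with a fold of 13.4 and 12.1 in controls and 12.8 and 8.60 in KO, and KO 2 had the lowest percentile (87.3, against 91.4 to 94.0 in the others). An upstream region nearly as strong (chr7:46838193-46839630) lay before the first base of the gene record, 2644 bp away, and had 9.41 and 10.2 in controls against 10.5 and 12.6 in KO, at percentiles of 87.5 and 87.8 against 90.0 and 94.1. Both KO values were above both controls there, by 2.22 points. In KO 2 this upstream region was stronger than the start, and in the other libraries it was weaker. Beyond the gene’s end, in the lncRNA gene Gm39011, chr7:46857402-46857849 had percentiles of 66.6 and 60.2 against 75.0 and 11.6, with the KO libraries on both sides of the controls.

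Ldhb (chr6:142490249-142507957), whose subunit favours the use of lactate, was open at its start (chr6:142507265-142508362) with a fold of 13.5 and 15.9 in controls and 13.3 and 9.80 in KO. Both KO percentiles (93.8 and 90.0) lay below both controls (94.0 and 95.9), by 0.237 points, and KO 2 accounted for most of the distance. A weak region 687 bp upstream of the gene (chr6:142508644-142508967) was present in control 2 and both KO libraries. KO 2, low at the starts of Ldha and Ldhb, also had the smallest share of summits at or above a -log10 q of 5, and the part of that in these values was not tested.

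Counting over the 10 genes, 50 of the 112 regions were held by at least 2 libraries, and 31 of these by all 4 (62.0%, against 58.4% of all such regions). The other 62 regions were in a single library (55.4%, against 59.3% in the series), 15 in control 1, 17 in control 2, 18 in KO 1 and 12 in KO 2. They were weak, with percentiles from 3.17 to 59.8, a median of 21.6 and no fold above 3.73. Epas1 with 24, Egln1 with 10 and Pdk2 with 8 held most of them.

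**Figure D4:**
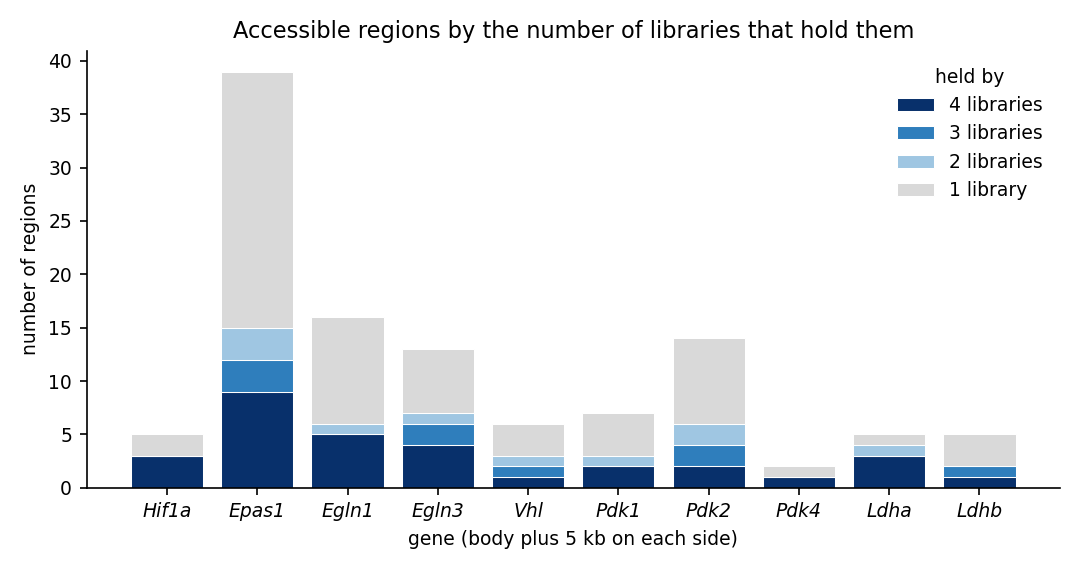
Number of regions per gene (body plus 5 kb on each side), stacked by how many of the 4 libraries hold them. Epas1 has 39 regions, 24 of them in 1 library, while Hif1a, Pdk4, Ldha and Ldhb have 5 or fewer.

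No region was in both KO libraries and neither control, where 3.47% of all regions in at least 2 libraries were. Conversely, 4 of the 50 were in both controls and neither KO library, where 6.05% of all regions were. These are the weak regions of Egln3, Vhl and Pdk2 given above, each with a -log10 q between 0.695 and 3.11 in the controls. Of the 31 regions held by all 4 libraries, none was ranked higher in KO (6.12% of all shared regions) and 1, in Egln1, was ranked lower (6.31%). With no minimum gap, 6 lay above (19.0% of all shared regions) and 6 below (17.8%), and 19 overlapped, so the counts over these genes are near those over all regions.

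The 22 shared regions that were not a start-site region had a median KO minus control difference of -1.18 points. Of these, 9 were up and 13 down, and the median over all such regions of the series was -0.098. The 22 include the region at the first base of the Hif1a record (-6.60). Since Epas1 has no listed start, they also include its regions just before and just after the first base (-4.71 and -11.3). Differences ranged from -24.1 to 20.7 points. In 6 of the 8 regions with a mean difference of at least 10 points the genotypes overlapped, and the share of all shared regions where this is so was not counted.

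**Figure D5:**
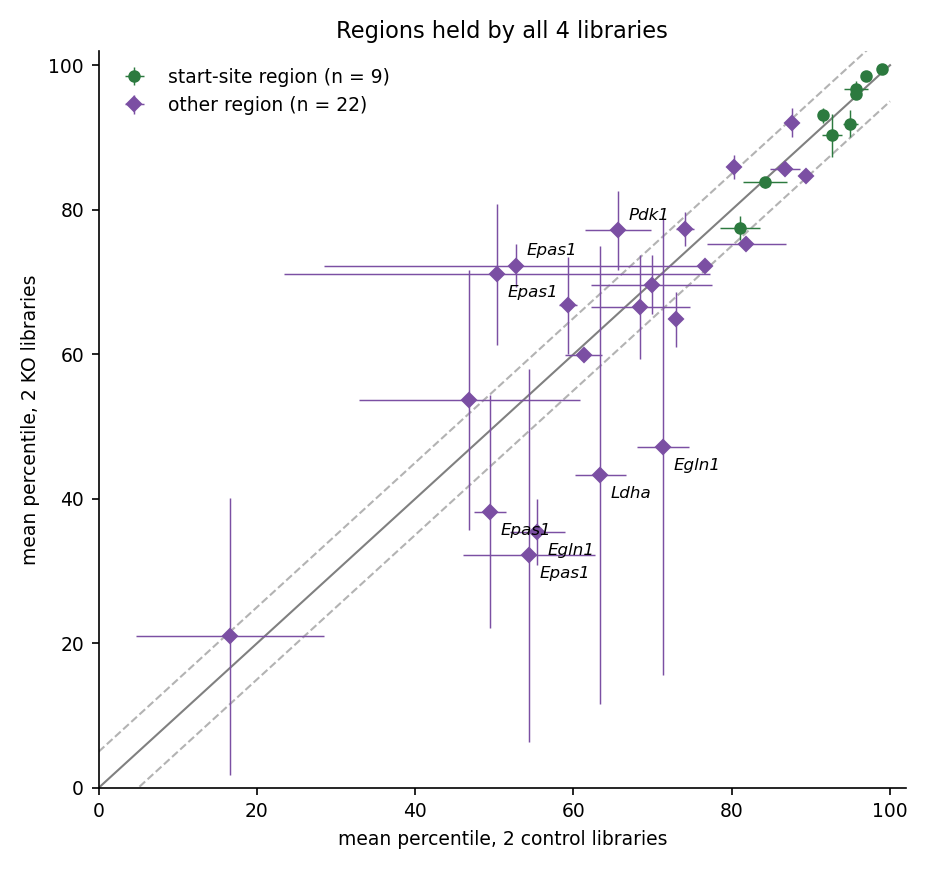
Mean percentile of the 31 regions held by all 4 libraries in the 2 KO libraries against that in the 2 control libraries, with bars to each of the 2 libraries, the line of equality and dashed lines at 5 points on either side. Start-site regions (n = 9) lie within 5 points of equality, and in 6 of the 8 named regions, those at least 10 points from it, the genotypes overlap. The share of all shared regions where this is so was not counted.

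The rest of the pathway was read in 50 further genes, of which 43 have a listed start. The start-site region was present in all 4 libraries for 40 of these and in none for 3, Ldhc (the lactate dehydrogenase subunit of testis), Hk1 (a hexokinase, at its most upstream listed start) and Car9 (a carbonic anhydrase that hypoxia induces). All 9 starts of HIF partners and regulators and all 9 of pyruvate entry genes were open in every library, as were 3 of 4 for lactate, 14 of 15 for glucose uptake and glycolysis and 5 of 6 for classic HIF targets. A single start of the 40, that of Arnt2, a partner subunit known from neurons, was ranked higher in KO, and none was ranked lower. Over all coding start sites 1.98% were ranked higher and 1.13% lower, so 1 of 40 is near that share. Arnt2 had a fold of 3.57 and 3.85 in controls and 5.21 and 4.44 in KO, with percentiles of 55.8 and 54.4 against 72.6 and 67.3. Of the 272 regions of these genes in at least 2 libraries, 7 were in KO only (2.57%, against 3.47% of all regions) and 15 in controls only (5.51%, against 6.05%). Of their 177 regions in all 4 libraries 10 were ranked higher (5.65%, against 6.12%) and 13 lower (7.34%, against 6.31%). By list, the counts higher and lower were 2 and 3 of 33 for HIF partners and regulators and 2 and 1 of 21 for pyruvate entry. They were 3 and 0 of 13 for lactate, 3 and 5 of 86 for glucose uptake and glycolysis and 0 and 4 of 24 for classic HIF targets. These counts are small, and differences between lists were not tested.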

How the data were processed

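Sorted bone marrow cells of the 2 genotypes were profiled by ATAC-Seq, in 2 libraries each. The submitters' processing notes name Bowtie2, MACS2 and mm10, with no role or version, and the authors made a separate list for every library. The deposited lists give a row per summit, with a fold (the ratio of summit signal to local background) and the −log10 p and −log10 q as the authors deposited them. The read depth is unknown, and so is the precision it would give. Some rows (253 to 492 a list) give the summit as a chromosome position, which was used as it stands.

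Intervals on the autosomes and X were merged at 1 bp overlap in Python 3.11.15 (pandas 2.3.3, numpy 2.4.6), and figures were drawn with matplotlib 3.10.9. A start-site region overlaps the most upstream start of a gene in the RefSeq promoter table (GRCm38.p6), or is the nearest within 1000 bp. Of the 10 genes 9 matched that table and all 10 the gene table. Exons and introns were not analysed here. DiffBind, used in the study, needs reads and was not run. The code of the calls was run on 20000 simulated regions, where 186 of 200 raised and 191 of 200 lowered regions were called. Of 19200 unchanged regions, 654 and 663 were called higher and lower. All 200 plus 200 genotype-specific regions were called, which was fixed by leaving their peaks out of the other genotype. The sizes of change and noise were set by hand, and all other regions were in all 4 libraries. These figures check the code and do not give the error rate of the calls in these data.

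The 10 genes, the pathway and marker lists and the rules were chosen with earlier results of these data known. All 10 genes are named, with each region that met a presence or rank rule, the start-site region and the region of highest mean fold. Further regions, held by all 4 libraries or at the gene ends, were named after their values were seen. Further pathway genes are named only where a start is missing from a library or met the rank rule. Alternatives were a stricter −log10 q, equal list lengths, coverage of the region, a shorter flank, ranks by −log10 p, ranks among shared regions, a wider gap, the replicate block and leaving out each library. Ranks among start sites alone were added after seeing the data. The replicate numbers were not used as pairs in the main calls, and whether they pair the libraries is not known.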

Additional observations from a re-analysis of the deposited data

How the results depend on the processing

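The counts depend on which weak peaks are listed and among which regions a percentile is taken. At a −log10 q of 5 or more, 18 of 28 regions were in all 4 libraries (67.6% of all regions), 1 was in controls only (the Egln1 region; 7.02%) and 6 were ranked lower in KO (2 in Hif1a, 1 in Epas1, 2 in Egln3 and the Pdk4 start site; 16.9%). With the 100000 strongest summits of each library, 18 of 25 were in all 4 (72.1% of all regions), 2 in KO only (3.11%), 1 in controls only (2.75%), 1 ranked higher (9.22%) and 3 lower (7.32%). With peaks covering at least 0.5 of a region, 20 of 44 were in all 4 (39.6%) and 0 were ranked lower (3.45%), so the Egln1 call was lost. Among regions in all 4 libraries, 2 were ranked higher and 5 lower, against 8.27% and 8.47% of all shared regions. The cause of these shifts was not tested.

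With a library left out, the lone library of a genotype stands for it. For KO only, the counts then ranged from 1 of 97 without control 2 (2.80% of all regions) to 18 of 101 without KO 2 (21.2%). For controls only they ranged from 6 of 101 (4.93%) to 23 of 103 without control 1 (15.8%). Ranked higher were 2 to 4 (13.0% to 19.0%), and ranked lower were 2 to 6, with 6 without KO 1 (11.3% to 19.6%). Held by all libraries were 33 to 35, of 42 to 51 regions (70.3% to 72.3% of all regions). Leaving out any 1 library moved the first 4 counts by over 1.5 times, except controls only without KO 2 (6). The Egln1 region stayed ranked lower in each of these 4 settings. With 11.96 points between the genotypes in the full set, leaving out a library could hardly undo that call, so this adds no support. With a flank of 1000 bp or a gap of 10 points the counts stayed within 1.5 times. With ranks by −log10 p the 1 region ranked lower (5.77% of all shared regions) was in Egln3 (chr12:54187285-54188737) and not in Egln1. With the replicate block, 1 of 31 regions (Pdk1) was ranked higher and 1 lower, where 9.59% and 9.94% of all shared regions were. The replicate numbers gave no sign of pairing. Control 1 minus control 2 correlated with KO 1 minus KO 2 at r = 0.0103 over 80271 regions. That value is a description across regions of the same libraries.

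Of 81 alternative values for the 9 start sites, without the replicate block, which leaves a mean difference as it is, 61 moved by less than the spread between replicates and 20 by more. The 20 came from the stricter −log10 q, equal list lengths, ranks among shared regions and ranks by −log10 p. None came from leaving out a library or from the coverage rule. The spread was not recomputed on the scale of each setting. The sign held in each for Hif1a, Egln3, Pdk1, Pdk4 and Ldhb, and changed in at least 1 for Egln1, Vhl, Pdk2 and Ldha. Unknown depth limits whether a missing weak peak is absent.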
